A study of Mus musculus with 10 samples.

Results

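The genes described here are 34 transcripts known as targets or controllers of p53 in mouse and human cells. They were taken by symbol from the 23847 gene loci of the table. This list, its division by role and the other gene lists were chosen with earlier results of these data known. Counts set beside the shares of all genes therefore describe the lists and do not test them. All 34 symbols were found, and 32 had a mean of at least 1 FPKM (fragments counted per kilobase of transcript and scaled to the mapped total) over the 6 libraries and were tested. Pmaip1 and Rrm2b lay below that level. The list was divided by role into the p53 gene with its feedback genes (6 genes), cell cycle arrest (7), cell death and survival (13), DNA repair and nucleotide supply (5), and stress metabolism and RNA binding (3).

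The RNA came from frozen livers taken at 40 h of regeneration after partial hepatectomy, an operation that removes most of the organ and drives the hepatocytes left behind into division. The KO mice (3 libraries) were Arid1a Fl/Fl with Alb-cre, which expresses Cre recombinase from the albumin promoter and so deletes the floxed gene in hepatocytes, while the other cells of the liver keep it. The WT mice (3 libraries) carried the same Arid1a Fl/Fl alleles without Alb-cre. All were of a C57/B6 and 129 mixed strain at postnatal day 90, and all had the hepatectomy. A further 4 libraries from before hepatectomy, 2 KO and 2 WT, were not analysed here, so the response to surgery itself is not described. Nothing in the labels says whether the libraries of a group came from separate mice, and p-values therefore measure only the spread between these libraries.

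The protein p53, encoded by Trp53, is a transcription factor that cells hold at a low level through the ubiquitin ligase Mdm2 and stabilise after DNA damage, replication stress or ribosomal stress. It binds response elements made of a pair of decamers and raises genes that arrest the cell cycle, repair DNA or start apoptosis, and it also raises Mdm2, which closes a feedback loop. Most control of p53 acts on the protein, which RNA does not measure. In the regenerating liver the target Cdkn1a, which encodes the kinase inhibitor p21, is known as a brake on hepatocyte division, and many mitotic genes are known to be repressed through p21.

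Arid1a, which encodes a subunit of the BAF (SWI/SNF) chromatin remodeller (chr4:133679008-133753611, positions on GRCm38), was 4.41, 5.57 and 6.15 FPKM in KO libraries, against 8.68, 8.45 and 8.49 FPKM in WT libraries. Every KO library lay below every WT library, with a log2 difference of -0.59 (SE 0.15, limma adjusted p = 0.207) and an exact two-sided permutation p of 0.1, the smallest that 3 against 3 can give. Values summed to between 409142 and 495209 FPKM per library, and the absolute depth is unknown. The 12 hepatocyte markers were all detected, and they summed to between 39167 and 49898 FPKM in KO libraries and between 45796 and 50091 in WT libraries. Their median centred log2 level lay between -0.21 and 0.05 in KO libraries and between 0.05 and 0.13 in WT libraries, with each KO library below each WT library and KO replicate 2 lowest. Summed levels of the macrophage, endothelial, stellate, cholangiocyte, T and NK cell, and neutrophil marker lists overlapped between the genotypes. The B and plasma cell list summed to 69.3 to 103 FPKM in KO libraries and 110 to 121 FPKM in WT libraries, with 9 of its 10 genes under 1 FPKM and Pax5 at 0 in all 6. Nearly all of that sum thus came from 1 gene, and it does not describe the level of B or plasma cells. In whole tissue, fewer cells of a type and less RNA per cell cannot be told apart, and the part of these cell types in the results below was not tested.

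The libraries differed widely in mitotic transcripts. A mitosis score, the median over 45 mitotic genes such as Mki67, Cdk1, Ccnb1 and Plk1 of log2(FPKM + 1) minus each gene's mean over the libraries, was 1.83, -1.30 and 2.5 in KO replicates 1 to 3, against -1.30, -1.45 and -0.28 in WT replicates 1 to 3. Mki67, the proliferation marker, was 41.6, 1.57 and 66.7 FPKM in KO libraries, against 1.82, 1.43 and 6.98 FPKM in WT libraries. KO replicate 2 therefore had the KO genotype with a mitotic level in the range of the WT libraries. Of the 45 mitotic genes, 44 had KO replicates 1 and 3 above every WT library and KO replicate 2 not.

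Most p53 targets lay above their WT level in KO livers, and they divided by how they behaved in KO replicate 2. In 9 of the 32 tested genes (Trp53, Ccng1, Rps27l, Cdkn1a, Bax, Aen, Phlda3, Sesn2 and Zmat3) every KO library lay above every WT library, beside 16.7% of all 10956 genes tested. In 13 (Mdm4, Ppm1d, Btg2, Gadd45g, Plk2, Apaf1, Ei24, Tnfrsf10b, Eda2r, Trp53inp1, Triap1, Ercc5 and Polk) KO replicates 1 and 3 lay above every WT library and KO replicate 2 did not, beside 11.2% of all genes. The other 10 followed neither pattern, and no member had every KO library below every WT library, beside 5.44% of all genes. With 1 library left out, fewer libraries have to be apart, and the first count was 22 without KO replicate 2, beside 27.8% of all genes, and 15 without WT replicate 3, beside 28.4%. It was 9 to 12 without any one of the other 4 libraries, beside 20.6% to 25.2% of all genes.

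No member passed the test at an adjusted p under 0.05 in limma over all genes (0.119% of all genes did, 13 in number, and 0.0183% did with higher values in KO). At an unadjusted p under 0.05, 11 members had higher values in KO, beside 11.2% of all genes, and none had lower values, beside 3.99% of all genes. Without KO replicate 2, 20 members did so at that unadjusted level, beside 13.3% of all genes, and 3 members passed the adjusted threshold, beside 1.8% of all genes, all 3 higher in KO. The median log2 difference, KO minus WT, was 0.61 over the 32 members and 0.15 over all genes, so that the members lay 0.47 above the general shift, 0.23 above it without KO replicate 3 and 0.50 without KO replicate 2. Of the members, 25 lay above the median of all genes, where 50% of genes lie by construction. The all-gene shift became 0.02 when the libraries were rescaled by median-of-ratios factors, and the members' median then stood 0.45 above it.

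**Figure D1:**
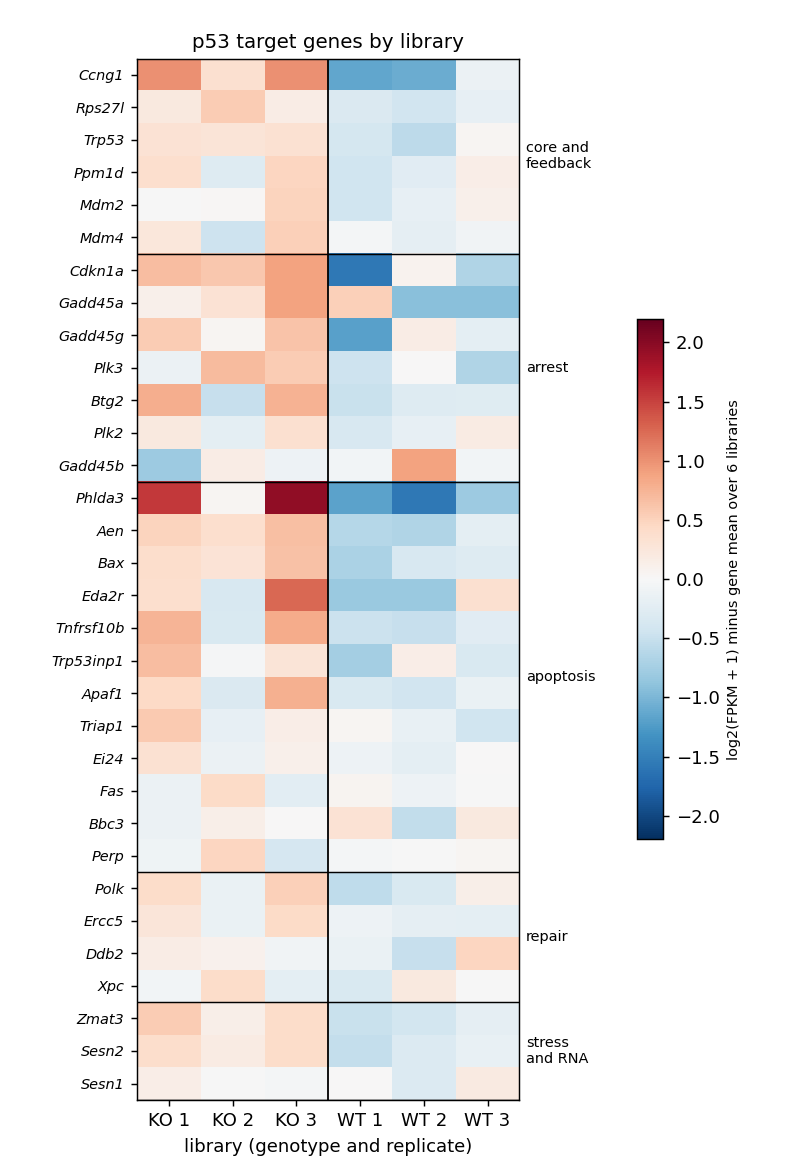
Level of the 32 tested p53 targets (rows, grouped by role) in each library (columns, KO at the left and WT at the right of the line), as log2(FPKM + 1) minus the gene's mean over the 6 libraries (colour scale in log2 units, red above and blue below the mean). Red prevails in KO replicates 1 and 3 and blue in the WT libraries, and KO replicate 2 is the lowest of the KO libraries for 21 of the 32 genes.

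Promoter sequence was examined because p53 binds a known element and because the members divided in KO replicate 2. Promoters of RefSeq (GRCm38.p6, from 250 bases before to 50 bases after each start) were listed for 26 of the 34 members. Ddb2, Perp, Pmaip1, Rrm2b, Tnfrsf10b, Trp53inp1, Xpc and Zmat3 had no entry. The motif searched was the p53 response element, 2 decamers of 10 letters placed 0 or 1 base apart. The C and the G that the consensus fixes inside each decamer had to be present. A window was counted when at least 17 of its 20 letters fitted. The consensus is its own reverse complement, so that one scan reads both strands. That minimum was chosen after the scan had been seen. Such an element was present in 8 of the 26 members (30.8%), against 884 of 27025 genes (3.27%) with a promoter in the table. The members were listed because they are known in the p53 pathway. A higher share among them was therefore likely from the start and is no result of these data. At 16 letters it was present in 9 members and 10.7% of all genes, and at 19 letters in 3 members and 0.13% of all genes.

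The 8 elements are printed 5′ to 3′ on the strand of the gene, with the element in capitals, including any spacer base, and the flanks in lower case. The flanks of Aen are short because its element lies in the non-coding part of an exon. The number of matching letters is 19 for the first 3, 18 for Bax and 17 for the others.
Ccng1, chr11:40755442-40755501, minus strand: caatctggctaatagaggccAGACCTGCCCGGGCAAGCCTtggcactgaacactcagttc
Cdkn1a, chr17:29090908-29090967, plus strand: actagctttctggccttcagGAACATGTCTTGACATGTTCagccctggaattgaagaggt
Rps27l, chr9:66946276-66946335, plus strand: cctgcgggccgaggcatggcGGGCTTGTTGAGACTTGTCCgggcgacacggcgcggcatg
Bax, chr7:45467059-45467119, minus strand: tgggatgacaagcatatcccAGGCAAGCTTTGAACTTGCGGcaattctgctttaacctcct
Aen, chr7:78895933-78895960, plus strand: agccGGGCTTGTCCGGGCAAGGAGcttc
Trp53, chr11:69580264-69580323, plus strand: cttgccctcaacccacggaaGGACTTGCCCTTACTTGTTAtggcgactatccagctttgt
Bbc3, chr7:16309466-16309525, plus strand: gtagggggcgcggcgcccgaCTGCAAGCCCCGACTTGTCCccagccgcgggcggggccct
Sesn1, chr10:41887246-41887305, plus strand: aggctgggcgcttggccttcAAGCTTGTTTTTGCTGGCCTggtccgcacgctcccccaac

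By GENCODE M21 annotation the windows of Ccng1, Cdkn1a and Trp53 lie outside any annotated gene, upstream of their own start. That of Bax lies upstream of Bax within an intron of Gm45808, and those of Rps27l, Bbc3 and Sesn1 lie in introns of longer transcripts of the same genes. The first base of the element stood at position -195 relative to the start in Ccng1, -51 in Cdkn1a and -201 in Bax. The first 6 of the printed genes are all among the 9 whose KO and WT libraries did not overlap, of which 8 had a promoter entry. Phlda3 and Sesn2, also among the 9 and with an entry, had best matches of 15 and 12 letters. None of the 11 genes with an entry among the 13 that were not high in KO replicate 2 had an element at 17 letters. Of these 11, Ppm1d had one at 16, and Apaf1, Ei24, Gadd45g, Plk2 and Polk had best matches of 15 letters, as Phlda3 had. The contrast thus depends on the minimum of 17 letters, which was chosen after the scan had been seen. Bbc3 and Sesn1 carry an element and followed neither pattern. A match describes the letters of a window and not p53 binding there, elements elsewhere in a gene were not searched, and the groups compared were defined from the expression values, so no test is given.

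In the branch of p53 and its feedback genes, 3 of 6 had every KO library above every WT library, beside 16.7% of all genes. A count over so few genes is no result about the branch. Trp53 (chr11:69580359-69591873) was 12.8, 12.3 and 12.8 FPKM in KO libraries, against 7.39, 6.37 and 10.4 FPKM in WT libraries. The KO values nearly coincided, KO replicate 2 included, while WT replicate 3 was the WT library nearest to them. The log2 difference was 0.62 (SE 0.19, limma adjusted p = 0.248).

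Ccng1 (chr11:40748552-40755286), which encodes cyclin G1, a p53 target that recruits a phosphatase to Mdm2, was 42.1, 26.5 and 42.1 FPKM in KO libraries, against 8.68, 9.10 and 18.7 FPKM in WT libraries. KO replicate 2 was the lowest of the KO libraries and still above all WT libraries, and WT replicate 3 was the highest WT library. The mean was 3.03 times higher in KO, with a log2 difference of 1.57 (SE 0.33, limma adjusted p = 0.164).

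Rps27l (chr9:66946118-66949509), a ribosomal protein paralogue of Rps27 that binds Mdm2, was the most abundant member, at 381, 483 and 369 FPKM in KO libraries, against 263, 245 and 290 FPKM in WT libraries. Among the 9 it alone was highest in KO replicate 2. The log2 difference was 0.62 (SE 0.19, limma adjusted p = 0.262). The median of 72 ribosomal protein genes, centred on each gene's mean, was -0.16, 0.77 and 0.10 in KO libraries, against -0.01, -0.45 and -0.25 in WT libraries, so those genes were also highest in KO replicate 2, and their part in the Rps27l values was not tested.

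Mdm2 (chr10:117688905-117710716), the ubiquitin ligase that degrades p53, was 11.8, 12.2 and 17.1 FPKM in KO libraries, against 8.52, 10.4 and 13.0 FPKM in WT libraries. The groups overlapped, with WT replicate 3 above KO replicates 1 and 2, and the log2 difference was 0.34 (SE 0.21, limma adjusted p = 0.465). Mdm4, a p53 inhibitor related to Mdm2, was 11.1, 6.33 and 13.6 FPKM in KO libraries, against 8.78, 7.79 and 8.55 FPKM in WT libraries. KO replicate 2 was the lowest of all 6 libraries for Mdm4. Ppm1d, the phosphatase Wip1 that switches off the damage response, averaged 3.43 ± 1.15 FPKM in KO and 2.41 ± 0.709 FPKM in WT (SD, n = 3 each), again with KO replicate 2 among the WT values.

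In the arrest branch, 1 of 7 genes, Cdkn1a, had every KO library above every WT library, beside 16.7% of all genes. That count is near the share of all genes and is no result about the branch. Cdkn1a (chr17:29090986-29100722) was 43.1, 40.2 and 49.6 FPKM in KO libraries, against 8.25, 27.8 and 16.3 FPKM in WT libraries. The KO values lay close together, with KO replicate 2 among them, and most of the spread was among WT libraries. WT replicate 2, whose mitosis score was the lowest, had the highest WT value. The mean was 2.54 times higher in KO, with a log2 difference of 1.44 (SE 0.39, limma adjusted p = 0.220).

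Btg2, an antiproliferative cofactor of mRNA deadenylation, was 18.9, 7.08 and 18.4 FPKM in KO libraries, against 7.16, 8.48 and 8.51 FPKM in WT libraries. KO replicate 2 was the lowest of all 6 libraries. The log2 difference of 0.70 (SE 0.35) had an adjusted p of 0.383 in limma, and without KO replicate 2 it was 1.12 with an adjusted p of 0.0283. Over all alternatives the limma adjusted p of Btg2 lay between 0.0283 and 0.976. Gadd45g, a stress gene that inhibits Cdk1, was 65.9, 45.9 and 68.6 FPKM in KO libraries, against 18.9, 50 and 38.0 FPKM in WT libraries, so KO replicate 2 lay within the WT values. Plk2, a polo-like kinase of centriole duplication, averaged 1.84 ± 0.551 FPKM in KO and 1.42 ± 0.478 FPKM in WT (SD, n = 3 each).

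The other arrest genes took different courses. Plk3, a stress-responsive kinase of the same family, was 23.9, 43.1 and 39.2 FPKM in KO libraries, against 18.8, 26.4 and 16.3 FPKM in WT libraries. It was highest in KO replicate 2, and WT replicate 2 overlapped with KO replicate 1, with a log2 difference of 0.74 (SE 0.28, limma adjusted p = 0.307). Gadd45a, another growth arrest gene of the Gadd45 family, was 1.76, 2.19 and 3.74 FPKM in KO libraries, against 2.69, 0.362 and 0.360 FPKM in WT libraries, a WT spread that set its log2 difference of 0.87 beside an SE of 0.43. Gadd45b was the only member with a log2 difference below 0, at -0.50 (SE 0.35, limma adjusted p = 0.504), with 1.31, 3.48 and 2.70 FPKM in KO libraries and 2.83, 6.39 and 2.83 FPKM in WT libraries. Gadd45a and Plk3 overlap a locus on the opposite strand, and the sources used here do not say whether strand was recorded.

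In the branch of cell death and survival, 3 of the 12 tested genes had every KO library above every WT library, beside 16.7% of all genes. For 12 genes that count is near the share of all genes and is no result about the branch. The pattern without KO replicate 2 was found in 6, beside 11.2% of all genes. Aen (chr7:78895927-78908833), a nuclease that p53 induces in apoptosis, was 18.6, 17 and 21.1 FPKM in KO libraries, against 8.05, 7.86 and 11.1 FPKM in WT libraries. It had the smallest p of all members, 0.000839, with a log2 difference of 1.0 (SE 0.18, limma adjusted p = 0.128). Bax (chr7:45461695-45466898), the BCL2 family protein that opens the outer mitochondrial membrane, was 22.7, 21.5 and 27.6 FPKM in KO libraries, against 10.3, 13.2 and 14.0 FPKM in WT libraries. Both genes were about as high in KO replicate 2 as in KO replicate 1. The log2 difference of Bax was 0.89 (SE 0.18, limma adjusted p = 0.145).

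Phlda3 (chr1:135766085-135769134), a p53 target that blocks Akt signalling, had the largest log2 difference of the members. It was 11.8, 3.47 and 15.7 FPKM in KO libraries, against 0.911, 0.467 and 1.51 FPKM in WT libraries. KO replicate 2 lay between the other KO libraries and the WT libraries, above every WT value. The mean was 10.7 times higher in KO, and the log2 difference was 2.36 (SE 0.49, limma adjusted p = 0.164). The adjusted p was 0.0152 without KO replicate 2, 0.0494 with the mitosis score as a covariate, and between 0.0152 and 0.495 over all alternatives.

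**Figure D2:**
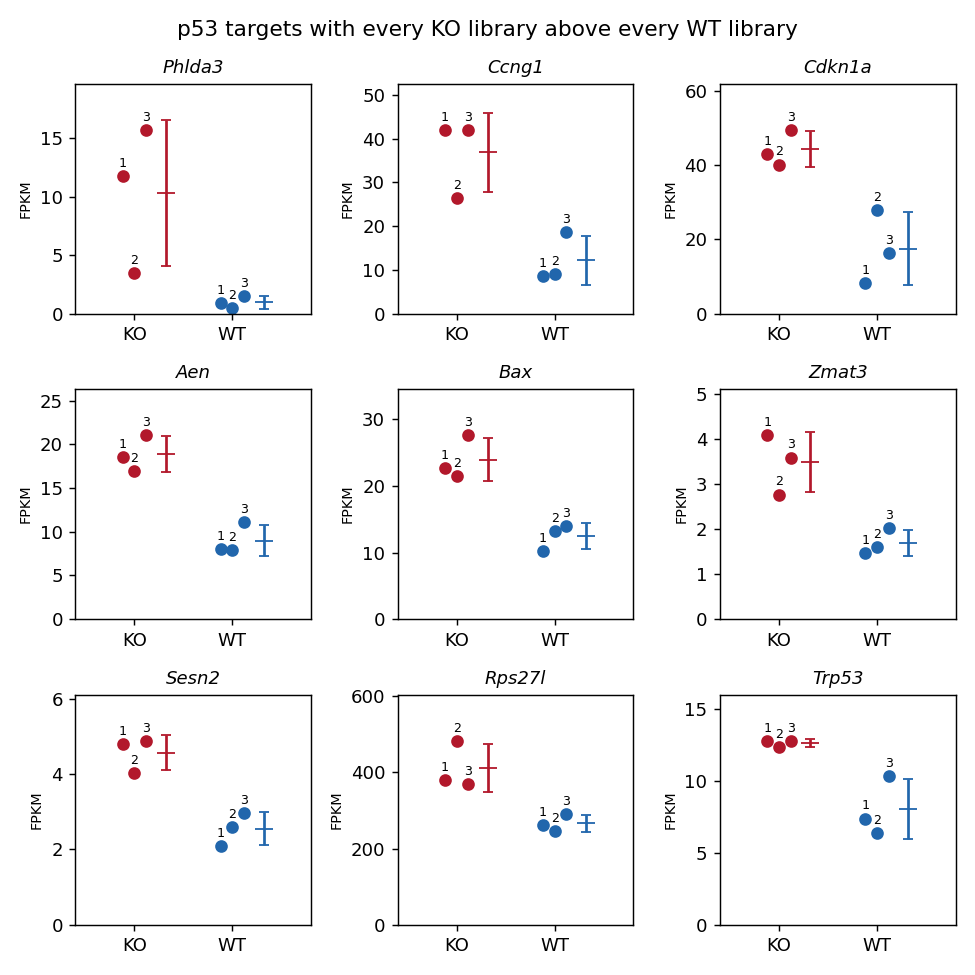
FPKM in each library (vertical axis, linear from 0, with its own range for each gene) for the 9 p53 targets whose KO (red) and WT (blue) libraries did not overlap; each point is a library with its replicate number, and the bar beside them gives the mean ± SD (n = 3). KO replicate 2 is the lowest KO library for every gene shown except Rps27l, where it is the highest at 483 FPKM.

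Tnfrsf10b, Apaf1 and Eda2r were highest in KO replicates 1 and 3. Tnfrsf10b, the receptor of the death ligand Trail, was 4.71, 1.71 and 4.96 FPKM in KO libraries, against 1.46, 1.39 and 1.85 FPKM in WT libraries. Its log2 difference was 0.82 (SE 0.32, limma adjusted p = 0.311), and without KO replicate 2 it was 1.19 with an adjusted p of 0.0296. Over all alternatives the limma adjusted p of Tnfrsf10b lay between 0.0296 and 0.604. Apaf1, the scaffold of the apoptosome that activates caspase 9, was 2.28, 0.954 and 3.19 FPKM in KO libraries, against 0.911, 0.807 and 1.19 FPKM in WT libraries. Eda2r, an ectodysplasin receptor of the TNF receptor family, was 1.51, 0.514 and 3.63 FPKM in KO libraries, against 0.104, 0.0975 and 1.48 FPKM in WT libraries. In all 3 genes KO replicate 2 was below the highest WT library, which was WT replicate 3.

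Trp53inp1, a p53-induced stress protein, averaged 28.0 ± 7.24 FPKM in KO and 18.1 ± 5.91 FPKM in WT. Triap1, a mitochondrial lipid transfer factor that restrains apoptosis, averaged 6.76 ± 2.07 FPKM in KO and 4.92 ± 0.981 FPKM in WT (SD, n = 3 each for both genes). Ei24, an endoplasmic reticulum protein linked to autophagy, was 70.3, 51.0 and 60.3 FPKM in KO libraries, against 51.4, 47.8 and 56.2 FPKM in WT libraries. All 3 had KO replicate 2 within the WT values.

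Other death genes lay close to equal. Bbc3, which encodes the BH3-only protein Puma, was 1.01, 1.41 and 1.20 FPKM in KO libraries, against 1.75, 0.50 and 1.53 FPKM in WT libraries, although its promoter carries an element printed above. Pmaip1, which encodes the related protein Noxa, averaged 0.127 ± 0.0969 FPKM in KO and 0.110 ± 0.0758 FPKM in WT (SD, n = 3 each) and was not tested. Fas, the receptor of Fas ligand, was 13.0, 19.4 and 11.9 FPKM in KO libraries, against 14.8, 13.0 and 14.2 FPKM in WT libraries. Perp, a desmosome protein, was 33.7, 50.4 and 27.6 FPKM in KO libraries, against 34.9, 35.7 and 37.2 FPKM in WT libraries. Fas and Perp shared the order of the KO libraries, highest in replicate 2 and lowest in replicate 3, which is the reverse of the mitotic order. The log2 differences of Bbc3, Fas and Perp were 0.01, 0.04 and 0.01, and each was below 0 after rescaling of the libraries.

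In the branch of repair and nucleotide supply no gene had every KO library above every WT library, beside 16.7% of all genes. With so few genes that is no result about the branch. Polk, a translesion polymerase, averaged 2.98 ± 0.918 FPKM in KO and 1.78 ± 0.694 FPKM in WT. Ercc5, a nuclease of nucleotide excision repair, averaged 4.44 ± 1.05 FPKM in KO and 3.20 ± 0.145 FPKM in WT (SD, n = 3 each for both genes). In both, KO replicate 2 lay within the WT values. The damage sensor Ddb2 averaged 5.11 ± 0.524 FPKM in KO and 4.87 ± 2.07 FPKM in WT, and overlaps Acp2 on the opposite strand. The damage sensor Xpc averaged 3.60 ± 1.06 FPKM in KO and 3.29 ± 0.796 FPKM in WT. Rrm2b, the p53-induced ribonucleotide reductase subunit, averaged 0.738 ± 0.269 FPKM in KO and 0.781 ± 0.476 FPKM in WT and was not tested. The log2 differences of Ddb2 and Xpc were 0.11 and 0.09, both below 0 after rescaling. The median of the 4 tested repair genes was 0.09 above that of all genes, and it was 0.19 above without WT replicate 3, 0.18 above without KO replicate 2 and at -0.05 relative to all genes with the mitosis score as a covariate. The medians relative to all genes were 0.34 for p53 and its feedback genes, 0.60 for arrest, 0.47 for cell death and survival and 0.51 for stress metabolism and RNA binding, and differences between branches were not tested.

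In the branch of stress metabolism and RNA binding, Sesn2 and Zmat3 had every KO library above every WT library, beside 16.7% of all genes. This branch too has too few genes for its count to be a result. Sesn2 (chr4:132492807-132510456), a sestrin that senses leucine and restrains mTORC1, was 4.80, 4.04 and 4.89 FPKM in KO libraries, against 2.09, 2.59 and 2.96 FPKM in WT libraries. Its log2 difference was 0.66 (SE 0.16, limma adjusted p = 0.188). Zmat3 (chr3:32334794-32365665), an RNA-binding protein that regulates splicing, was 4.08, 2.76 and 3.58 FPKM in KO libraries, against 1.47, 1.60 and 2.01 FPKM in WT libraries. Its log2 difference was 0.73 (SE 0.18, limma adjusted p = 0.193), and it overlaps the locus 4930429B21Rik, whose strand is not given. In Zmat3 the KO libraries spread wider than the gap between the lowest of them and the highest WT library. Sesn1, the related sestrin, averaged 2.53 ± 0.254 FPKM in KO and 2.42 ± 0.581 FPKM in WT (SD, n = 3 each), with a log2 difference of 0.06 that was below 0 after rescaling.

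Set beside the mitotic genes library by library, the members followed them in part. KO replicate 2 was the lowest of the KO libraries for 21 of the 32 members (65.6%), for all 45 mitotic genes and for 34.8% of all genes. KO replicate 3, with the highest mitosis score, was the highest of the KO libraries for 17 members (53.1%) and for 29.5% of all genes. WT replicate 3, which had the highest WT mitosis score, was the highest WT library for 20 members (62.5%), for 42 mitotic genes and for 43.4% of all genes. KO replicate 2 lay above every WT library for 13 members, beside 46.7% of all genes.

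**Figure D3:**
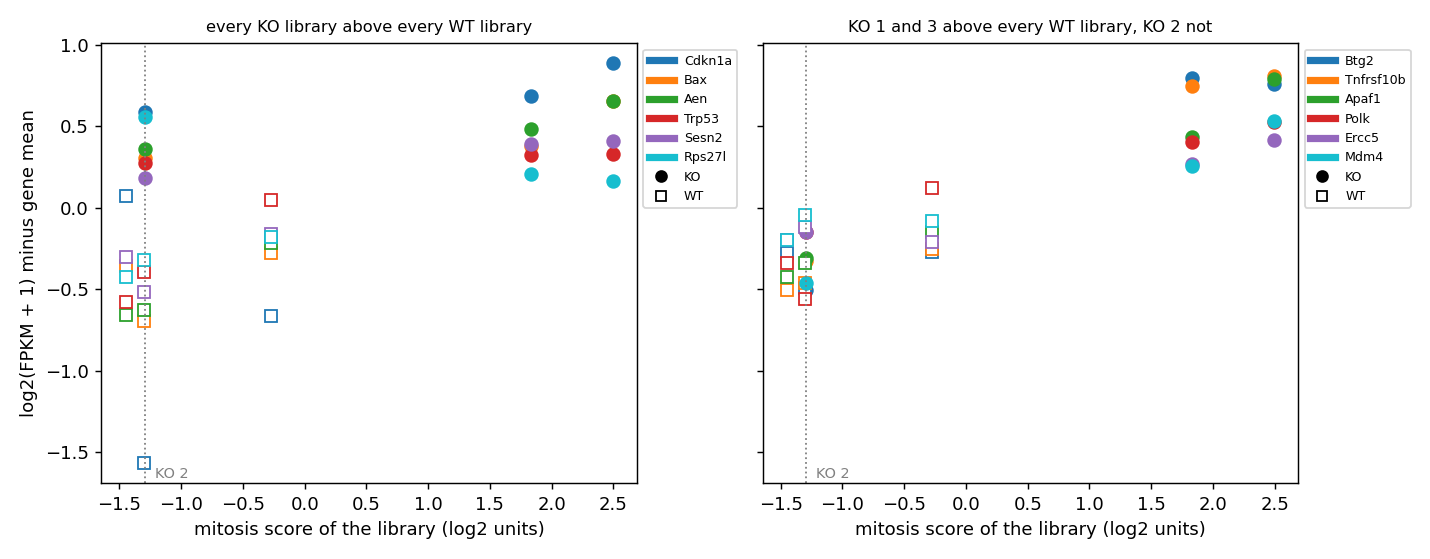
Level of 12 p53 targets in each library, as log2(FPKM + 1) minus the gene's mean (vertical axis, log2 units), against the mitosis score of the library (horizontal axis, log2 units); filled circles are KO and open squares WT, and a dotted line marks KO replicate 2, which almost shares its score of -1.30 with WT replicate 1. In the left panel (6 of the 9 genes apart in all libraries) KO replicate 2 lies above all WT libraries, and in the right panel (6 of the 13 genes) it lies among or below them. Both follow from how the classes were defined. Of the 9, Ccng1, Phlda3 and Zmat3 are not drawn. In KO replicate 2 they were 26.5, 3.47 and 2.76 FPKM. KO replicates 1 and 3 had 42.1 and 42.1 FPKM for Ccng1, 11.8 and 15.7 for Phlda3, and 4.08 and 3.58 for Zmat3.

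KO replicate 2 can be set beside WT replicates 1 and 2, whose mitosis scores of -1.30 and -1.45 lay closest to its own -1.30, with 1 KO library and so no replicate check. Over all genes tested, 57.5% were higher in KO replicate 2 than in both of these WT libraries, as were 19 of the 32 members (59.4%). The 9 genes with libraries apart are above both by definition, by amounts that depended on the WT library. Cdkn1a was 40.2 FPKM in KO replicate 2, against 8.25 FPKM in WT replicate 1 and 27.8 FPKM in WT replicate 2. Ccng1 was 26.5 FPKM in KO replicate 2, against 8.68 and 9.10 FPKM in WT replicates 1 and 2. The 13 genes that were not high in KO replicate 2 were defined by its not lying above every WT library. That definition lowers their counts, which are no result about these genes. Of the 13, 8 lay above WT replicate 1, beside 70% of all genes, and 6 above WT replicate 2, beside 65.7%. Above both lay 4, beside 57.5% of all genes. These 4 were Apaf1, Tnfrsf10b, Eda2r and Polk, for which WT replicate 3 was the only WT library above KO replicate 2. Gadd45g, for example, was 45.9 FPKM in KO replicate 2, against 18.9 FPKM in WT replicate 1 and 50 FPKM in WT replicate 2. Mdm4 was 6.33 FPKM in KO replicate 2, against 8.78 and 7.79 FPKM in WT replicates 1 and 2.

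With the mitosis score as a covariate in limma, the members' median log2 difference was 0.13 above that of all genes, and 1 member, Phlda3, passed the threshold, beside 0.73% of all genes. That model leaves 3 residual degrees of freedom. The 9 genes with libraries apart had log2 differences of 0.62 to 2.36 without the covariate and of 0.50 to 1.35 with it. The 13 genes that were not high in KO replicate 2 had 0.21 to 0.85 without it and -0.25 to 0.51 with it, with a median of 0.07. Cdkn1a stood at 1.34 with the covariate (1.44 without), Rps27l at 0.78 (0.62), Bax at 0.72 (0.89) and Trp53 at 0.50 (0.62). Plk3 stood at 1.02 with it (0.74 without) and Gadd45a at 0.81 (0.87). Below 0 with it were Mdm4, Ppm1d, Plk2, Eda2r, Sesn1 and Gadd45b. The classes were read from the same libraries, and so these ranges describe the values and do not test them. Whether mitosis sets the level of any member, or p53 that of the mitotic genes, was not tested.

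**Figure D4:**
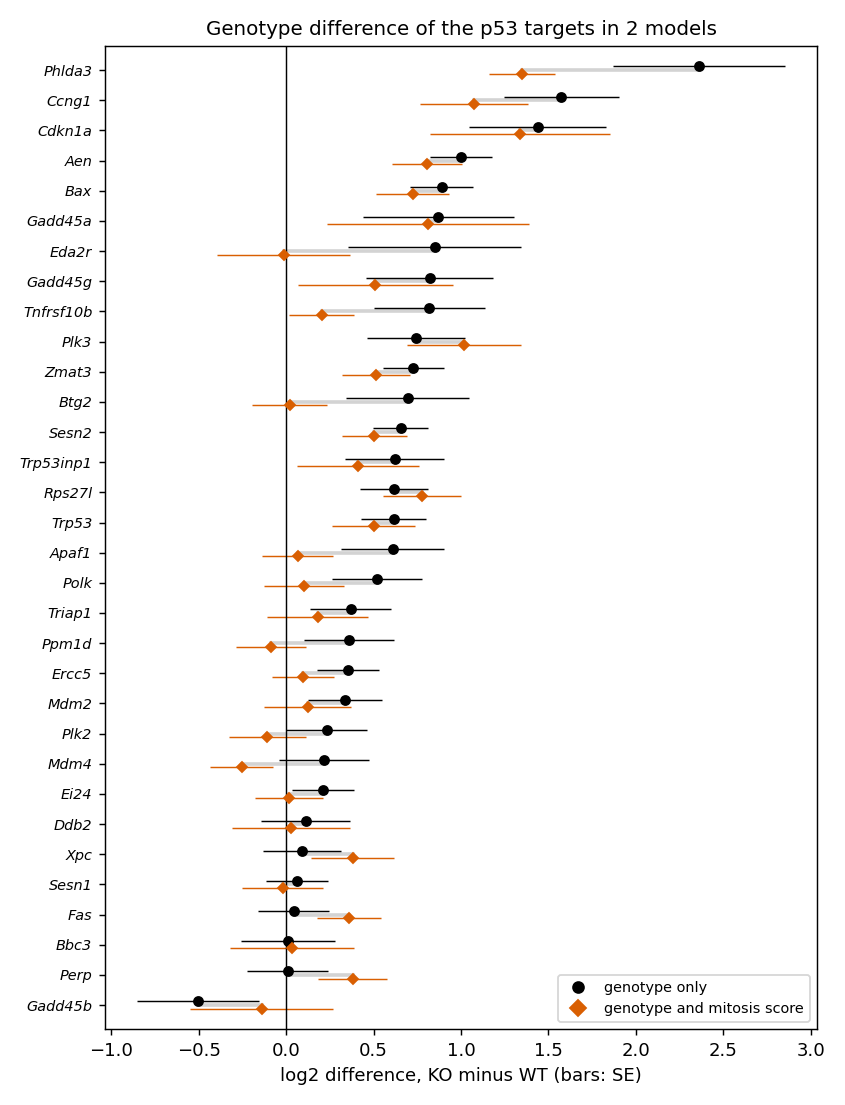
Log2 difference, KO minus WT (horizontal axis, log2 units), of each tested p53 target (vertical axis) in limma with genotype only (black circles) and with genotype and the mitosis score (orange diamonds); thin bars are ± 1 SE and a grey line joins the values of a gene. Phlda3 stands at 2.36 and at 1.35 with the score, Btg2 at 0.70 and 0.02, and Cdkn1a at 1.44 and 1.34.

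A list of 42 further known p53 targets, also chosen with earlier results of these data known, held 33 tested genes. None passed the test, and 10 had an unadjusted p under 0.05 with higher values in KO, beside 11.2% of all genes. In 10 every KO library lay above every WT library, beside 16.7% of all genes, and in 2 every KO library lay below, beside 5.44%. Their median log2 difference lay 0.21 above that of all genes. Ephx1, the microsomal epoxide hydrolase, was 215, 204 and 184 FPKM in KO libraries, against 62.1, 113 and 78.9 FPKM in WT libraries. Its log2 difference was 1.28 (SE 0.25, limma adjusted p = 0.136), and the KO libraries, replicate 2 included, stood together. Pltp, a phospholipid transfer protein, averaged 18 ± 4.15 FPKM in KO and 8.63 ± 1.26 FPKM in WT. Fdxr, the mitochondrial ferredoxin reductase, averaged 6.52 ± 1.57 FPKM in KO and 3.45 ± 0.681 FPKM in WT (SD, n = 3 each for both genes). Tap1, a peptide transporter of antigen presentation, 9030617O03Rik, and Sulf2, an extracellular sulfatase, had log2 differences of 0.82, 1.15 and 0.64, and for each the KO libraries all lay above the WT libraries.

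Of 25 genes that act on p53, 22 were tested, none passed, 4 had an unadjusted p under 0.05 with higher values in KO, beside 11.2% of all genes, and 3 had every KO library above every WT library, beside 16.7%. Both counts are near the shares of all genes, and so are no result about the list. Npm1, the nucleolar protein that binds Mdm2, averaged 87.4 ± 2.06 FPKM in KO and 57.9 ± 15.4 FPKM in WT. Atm, the kinase that activates p53 after double-strand breaks, averaged 3.86 ± 0.668 FPKM in KO and 2.16 ± 0.842 FPKM in WT. Trim28, a corepressor that works with Mdm2, averaged 22.4 ± 2.47 FPKM in KO and 15.2 ± 2.60 FPKM in WT (SD, n = 3 each for these genes). Chek2, the checkpoint kinase downstream of Atm, was 4.01, 1.52 and 4.44 FPKM in KO libraries, against 1.26, 0.592 and 1.71 FPKM in WT libraries, and so followed KO replicates 1 and 3 as the mitotic genes did.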

How the data were processed

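RNA sequencing libraries of mouse liver at 40 h after hepatectomy (6 libraries, 3 KO and 3 WT) were analysed. Per the file headers, the authors deposited FPKM values per gene locus, which are recorded here as a score because 312 of 23847 loci hold the text LOWDATA in place of a number. Those loci were left out, leaving 23535. The submitters' processing notes name the tools TopHat and edgeR and the builds mm10 and mm9 but give no role for any of them. Of 21835 symbols shared with GENCODE M21, 98.3% overlap its GRCm38 (mm10) locus, so positions are read as GRCm38. Values listed at the floor of 0.001 were set to 0. FPKM divides by the library total, so a shift in a few abundant transcripts moves all other values, and reads of overlapping or near-identical loci are shared out by estimation.

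Values were taken as log2(FPKM + 1), which understates the change of low genes, and the 10956 genes averaging 1 FPKM or more were tested. Genotype was the only term of a two-sided limma 3.58.1 model (lmFit, eBayes with trend, under R 4.3.3), with Benjamini-Hochberg adjustment over all genes and a threshold of 0.05. All 6 column names carry 1 run label, so no sequencing batch was separated. The procedure was run on simulated data with planted changes larger than most members showed, independent noise and no library that departed from its group. That run checks the code and does not describe performance on these libraries. Alternatives changed the pseudocount, the filter, the scaling and the trend, added a replicate block or the mitosis score, or left out each library. The sources used here give no read totals. Relative depth estimated from low values, with WT replicate 1 as 1, was lowest in KO replicate 3 (0.844) and highest in WT replicate 2 (1.21).

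The members, branches and other gene lists were chosen with earlier results of these data known. All 34 members are named, with every library's value for Trp53, Mdm2, Cdkn1a and members with libraries apart. From other lists, the genes of smallest p are named, up to 6 from other p53 targets, 4 from genes that act on p53 and 3 from each further list. Python 3.11.15 scanned the promoters.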

Additional observations from a re-analysis of the deposited data

How the results depend on the processing

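Over all genes, 13 passed the threshold, against 6 with no filter on low values, 5 with a mean FPKM of at least 5, 47 with a replicate block, 80 with the mitosis score as a covariate, and 0 (without WT replicate 1) to 242 (without KO replicate 2) when 1 library was left out. No member passed, against 1 (Phlda3, log2 difference 2.36) with the replicate block, 1 with the covariate and 0 to 3 with 1 library left out, the 3 being Phlda3, Btg2 and Tnfrsf10b without KO replicate 2. Deviations of same-numbered libraries correlated at -0.08, 0.16 and 0.16, and those of differently numbered libraries at -0.26 to 0.17. The labels do not say whether replicate numbers pair the libraries, and these values do not settle it. With 1 library left out, 9 to 20 members were higher at an unadjusted p under 0.05, 9 to 22 had libraries apart, the members' median stood 0.23 to 0.50 above that of all genes, and the median of cell death and survival 0.23 to 0.73 above it. Both medians were 0.13 with the covariate. Of 432 log2 differences of members under 14 alternatives, 400 kept their sign and side of the threshold, and 22 of 32 members never changed sign.

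Signs turned with the covariate for Mdm4 (-0.25), Ppm1d (-0.087), Plk2 (-0.11), Eda2r (-0.013) and Sesn1 (-0.018). They turned with median-of-ratios rescaling for Bbc3 (-0.073), Perp (-0.14), Fas (-0.10), Ddb2 (-0.012), Xpc (-0.026) and Sesn1 (-0.047), and with quantile normalization for the same genes in that order (-0.13, -0.14, -0.13, -0.054, -0.066 and -0.075). Leaving out 1 library gave -0.26 to 0.18 for Bbc3, -0.23 to 0.20 for Perp, -0.16 to 0.17 for Fas, -0.11 to 0.38 for Ddb2, -0.088 to 0.22 for Xpc and -0.073 to 0.18 for Sesn1. The causes were not tested. Absolute depth is unknown, and Pmaip1 and Rrm2b were too low to test.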

Other observations

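Gene groups next to the p53 pathway varied in how they followed the libraries. Of the other CDK inhibitors, 4 of 7 were tested and none passed. Cdkn2d (p19) was 10.5, 1.45 and 14.7 FPKM in KO libraries, against 0.747, 0.831 and 1.31 FPKM in WT libraries, with a log2 difference of 1.97 (limma adjusted p = 0.279) and of 0.61 with the mitosis score as a covariate. Cdkn3, a phosphatase of Cdk1 and Cdk2, was 7.46, 0.151 and 14.5 FPKM in KO libraries, against 0, 0.130 and 0.129 FPKM in WT libraries, so that KO replicate 2 was at the WT level. Cdkn1b (p27) was 10.5, 5.78 and 13.3 FPKM in KO libraries, against 5.87, 4.79 and 7.46 FPKM in WT libraries, with a log2 difference of 0.58 that became 0.00 with the covariate. Within KO these 3 genes and Cdkn1a were all lowest in replicate 2 and highest in replicate 3, as the mitosis score was, and Cdkn1a, at 40.2 FPKM in KO replicate 2, was near its 43.1 FPKM in KO replicate 1.

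Of the BCL2 family outside the 34 genes, 7 of 12 were tested, and none had an unadjusted p under 0.05 in limma. Of all genes, 11.2% were higher in KO and 3.99% lower at that level, so with 7 genes this is no result about the family. Bak1, the effector related to Bax, averaged 7.63 ± 2.09 FPKM in KO and 5.12 ± 1.15 FPKM in WT, and the survival gene Mcl1 averaged 24.5 ± 2.51 FPKM in KO and 19.8 ± 3.84 FPKM in WT. The death gene Bok averaged 1.71 ± 0.575 FPKM in KO and 2.29 ± 0.519 FPKM in WT (SD, n = 3 each for these genes). The median log2 difference of the 7 was 0.10 below that of all genes.

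Of the immediate early genes, 15 of 20 were tested and 3 had an unadjusted p under 0.05, each with higher values in KO, beside 11.2% of all genes. Of the 15, 8 lay above the median of all genes. Atf3, a stress-induced transcription factor, was 1.75, 1.70 and 1.92 FPKM in KO libraries, against 0.949, 0.708 and 0.538 FPKM in WT libraries. Its log2 difference was 0.69 (SE 0.17, limma adjusted p = 0.207). Myc was 2.68, 9.53 and 4.40 FPKM in KO libraries, against 1.37, 1.88 and 2.04 FPKM in WT libraries, and Jun was 7.94, 20.3 and 12.6 FPKM in KO libraries, against 5.10, 9.30 and 5.53 FPKM in WT libraries. Myc and Jun were both highest in KO replicate 2, the KO library with the lowest mitosis score.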
